A study of Mus musculus with 9 samples.

Results

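The comparison set the brains of 3 mice examined 72 hours after intracerebral haemorrhage (ICH) against the brains of 3 sham mice taken 72 hours after the control treatment. These 6 libraries were all the ICH and sham libraries of a series of 9, whose remaining 3 mice had a haemorrhage and the compound P7C3-A20. All 6 mice were wild-type C57BL/6, the tissue was labelled as brain, and poly(A) RNA was sequenced. The labels gave no brain region, side, sex, age or way of making the haemorrhage, and the sham procedure was not described further. The fit also held the P7C3-A20 libraries, which entered the choice of genes to test, the scaling of the libraries and the estimate of the spread. They did not enter the group means compared here.

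When a vessel ruptures inside the brain, plasma, platelets and red cells enter the tissue. Microglia, the resident phagocytes of the brain, and macrophages that enter from the blood take up dying cells and the clot and digest them in lysosomes. Thrombin, haemoglobin and iron from the clot act on the surrounding cells, the endothelial barrier opens, and astrocytes and vessel cells lay down matrix around the lesion while neurons near it are lost or silenced.

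Of 35112 genes in the table, 21900 had enough counts to be tested, and 5701 of these (26.0%) passed an adjusted p of 0.05 in edgeR's quasi-likelihood test. In ICH brains 3418 genes were higher (15.6% of the genes tested) and 2283 were lower (10.4%), and a gene is said here to have risen or fallen only where it passed that test. Changes are given as log2 of ICH over sham with their standard error, and levels as CPM, a gene's count scaled to the library's adjusted total. Of these calls 60.0% were higher, against 43.1% of the 5799 calls with quantile-normalized FPKM, where the median change of the 14644 genes covered was -0.0988. Without sham 3 the count was 5561, made up of 3345 higher and 2216 lower genes.

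The library totals ran from 54441757 to 63324728 counts, and the first principal component, with 83.9% of the variance, separated the groups. Sham 3 stood apart from sham 1 and 2: it had the highest summed level of 10 striatal markers (6855 CPM against 5041 and 4097 CPM), the lowest of 13 thalamic and hypothalamic markers (158 CPM against 421 and 603 CPM) and the lowest of 10 choroid plexus markers. Choroid plexus markers varied within both groups, 35.03 to 678 CPM in the sham libraries and 40.7 to 3297 CPM in the ICH libraries, and none of the 10 passed the test. Mitochondrial genes took 9.14% of the counts in sham 3 and 9.74% in ICH 3, against 14.3% to 16.6% in the other 4 libraries. Neuronal markers had a summed level of 4945 to 5658 CPM in the sham libraries and 3150.4 to 3569 CPM in the ICH libraries, and 9 of 10 fell. Of the glial markers, 4 of 9 for astrocytes and 1 of 8 for oligodendrocytes rose, and 0 of 8 ependymal markers passed the test. The summed level of oligodendrocyte markers was nonetheless 9204 to 11403 CPM in the sham and 12883 to 15578 CPM in the ICH libraries. That of astrocyte markers overlapped, at 3344 to 3478 CPM in the sham and 3341 to 4152 CPM in the ICH libraries. The labels did not say whether the mice of 1 group were treated or sequenced together, so the p-values measure the spread between these mice.

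The rises were larger than the falls. Among the genes that rose, 2083 did so by at least 2-fold, 1060 by at least 4-fold, 552 by at least 8-fold and 251 by at least 16-fold, while 301, 47, 16 and 4 of those that fell did so by these sizes. These counts put genes with no count in any library of 1 group at the lowest fold that 3 counts per library allow. The median change was 1.27 among genes that rose and -0.63 among genes that fell, and 0.00 over all genes tested. The genes that rose held 7.53%, 8.09% and 8.34% of all counts in sham 1, 2 and 3 and 17.0%, 16.9% and 18.5% in ICH 1, 2 and 3. Those that fell held 25.3%, 24.1% and 28.6% of the counts in the sham libraries and 17.7%, 17.0% and 18.6% in the ICH libraries. The higher and lower genes thus took about equal shares of an ICH library. These shares describe genes that the same test had picked. In this tissue mixture, fewer cells of a type and less RNA per cell cannot be told apart, for neurons as for any other type.

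**Figure D1:**
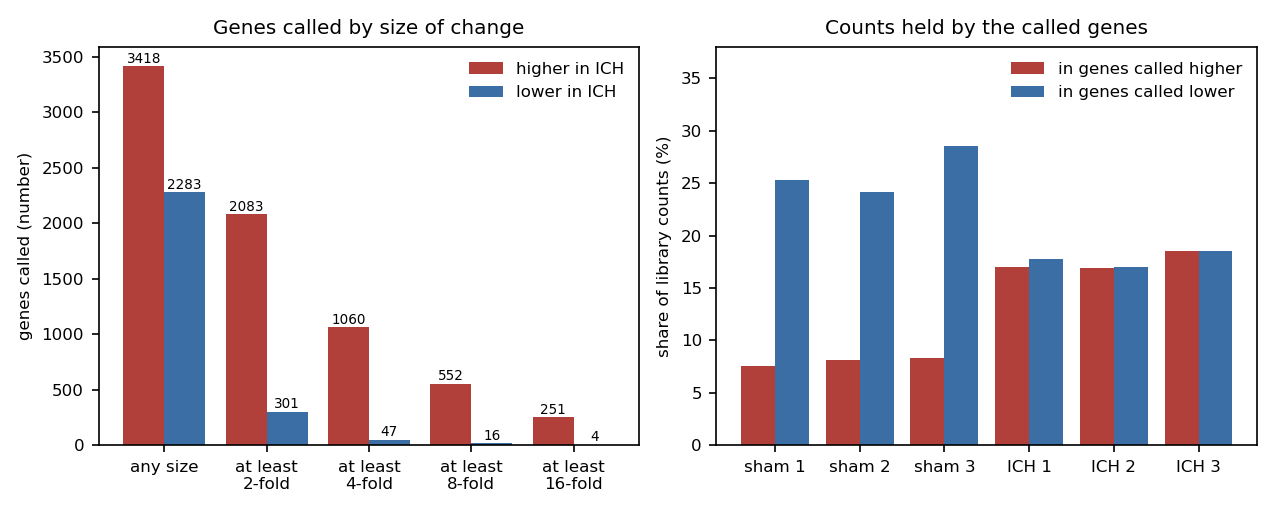
Number of genes called higher (red) or lower (blue) in ICH brains by the smallest fold change counted (left), and the percent of each library's counts held by the genes called higher or lower (right). Both panels start at 0; the left panel shows 1060 genes higher and 47 lower by at least 4-fold, and the right panel shows the red bars between 7.53% and 8.34% in the sham libraries and between 16.9% and 18.5% in the ICH libraries.

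The share of genes that fell was lowest among genes of low level. Among genes with a mean below 1 FPKM (fragments scaled by gene length and library size), 10.9% rose and 2.17% fell, and between 1 and 10 FPKM 18.6% rose and 12.5% fell. Between 10 and 100 FPKM the order turned, with 17.1% higher and 22.4% lower, and of the 213 genes at 100 FPKM or more 25.4% rose and 18.8% fell. Protein-coding genes were called more often (19.5% higher, 13.2% lower) than lincRNA or antisense genes (3.89% and 3.37%). No count in any sham library was seen for 171 tested genes, of which 133 rose, and no count in any ICH library for 30, of which 13 fell. A gene without counts in 1 group was tested only through its counts in another. The direction of these calls was therefore fixed in advance.

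The 8 steady genes with the largest rise in FPKM, steady meaning called in the full fit and without each of the 6 libraries, with groups that did not overlap and a change that moved by less than 1.5-fold, were Ftl1, Ctsd, Gfap, Hmox1, Fth1, Tmsb4x, Eef1a1 and B2m. Groups that did not overlap were thus a condition for being steady, and are no further result for a steady gene named here or below. Over all 21900 genes tested, every ICH library lay above every sham library for 5108 genes and below for 4119. Ctsd encodes the lysosomal protease cathepsin D. Its level was 81.7, 95.3 and 106 FPKM in sham 1, 2 and 3 and 960.2, 859.5 and 1101 FPKM in ICH 1, 2 and 3, a log2 change of 3.32 ± 0.22 (edgeR adjusted p = 7.4e-06). The lowest ICH value was several times the highest sham value. Tmsb4x, whose product binds monomeric actin, stood at 168, 163 and 249.3 FPKM in sham brains and 605, 527 and 682 FPKM in ICH brains (1.602 ± 0.15). Eef1a1, the elongation factor that brings aminoacyl-tRNA to the ribosome, rose by 0.61 ± 0.13, but with quantile-normalized FPKM its adjusted p was 0.0864. Ftl1, Fth1, Tmsb4x and Eef1a1 have processed pseudogenes of nearly the same sequence, which could share reads with them.

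Among the 8 steady genes with the largest fall in FPKM were Calm2, Pcp4, Penk, Ndrg4, Ppp3r1, Rgs4 and Gpm6a, several of them best known from neurons. Calm2, a gene for calmodulin, was at 619, 543 and 955 FPKM in the sham libraries and 440.2, 358 and 471 FPKM in the ICH libraries, -0.78 ± 0.16 on the log2 scale. Rgs4, which shortens signalling by heterotrimeric G proteins, had 121, 108 and 213 FPKM in sham and 59.4, 59.9 and 63.4 FPKM in ICH brains (-1.30 ± 0.21). Sham 3 was the highest library for both genes, and neither group overlapped the other.

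A total of 44 gene lists with 1470 tested genes described the change by function. In these lists 559 genes rose and 234 fell. The sign of the median held under 4 other scalings for all lists except 5, which are named where they are described. With quantile-normalized FPKM the size of the median was smaller by over 1.5 times in 19 of the 39 lists that kept its sign, for example 3.77 to 1.65 for Fc and paired receptors, 2.05 to 0.91 for Toll-like receptors, 1.53 to 0.64 for DNA replication and 0.66 to 0.16 for metalloproteinases. That fit differed in more than scaling: it left out genes not reaching 1 FPKM in 3 libraries and used log2(FPKM + 1). Its medians can thus cover fewer members, and the added 1 makes changes at low FPKM smaller. The test on log2(FPKM + 1), which leaves out genes below 1 FPKM, lowered the larger count by more than 1.5 times in 9 lists: Fc and paired receptors (32 to 21), IL-1 family (9 to 3), collagens (16 to 10), metalloproteinases (22 to 8), ependymal cilia (1 to 0), voltage-gated potassium channels (19 to 12), other potassium channels (10 to 4), glutamate receptors (16 to 10) and monoamine receptors (21 to 12). The test on log2(FPKM + 0.1) did so in these lists and in the TNF superfamily (18 to 11), and that on quantile-normalized FPKM in 7 lists, among them the TNF superfamily (11), Toll-like receptors (22 to 14) and NF-kappaB genes (15 to 9).

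**Figure D2:**
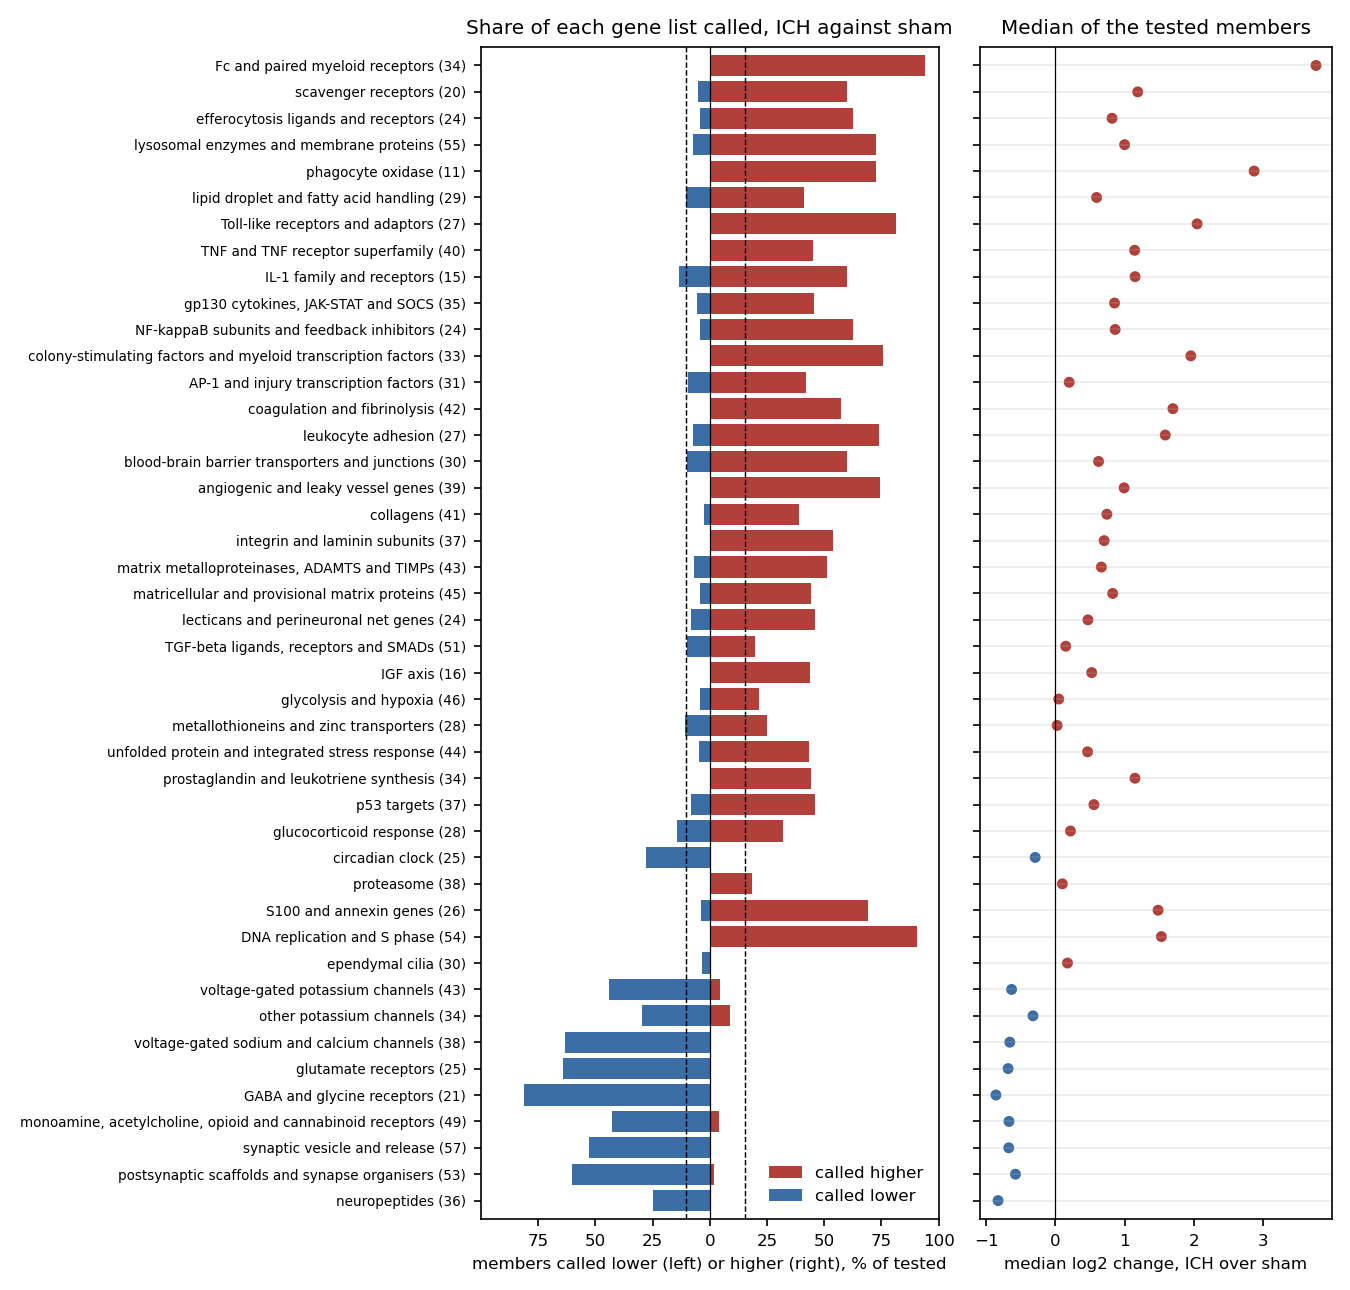
Percent of the tested members of each of 44 gene lists that were called higher (red, right) or lower (blue, left) in ICH brains, with the number of members tested in brackets; dashed lines mark the shares over all genes, 15.6% and 10.4%. The right panel gives the median log2 change of the tested members, from 3.77 for Fc and paired myeloid receptors to -0.86 for GABA and glycine receptors.

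Receptors by which phagocytes bind antibody, sugars and lipids rose most. Of the Fc and paired myeloid receptors, 32 of 34 rose and 0 fell, with a median log2 change of 3.77. Fcer1g encodes the common gamma chain through which several of these receptors signal. It was at 6.12, 8.97 and 6.88 CPM in sham 1, 2 and 3 and 88.1, 94.1 and 84.6 CPM in ICH 1, 2 and 3, 12.1-fold higher (edgeR adjusted p = 1.5e-05). Fcgr3, an activating receptor for immunoglobulin G, was at 9.96, 10.7 and 10.5 CPM in the sham and 93.7, 93.3 and 72.1 CPM in the ICH libraries. The ICH values of both genes lay far above the sham values, and ICH 3 was the lowest ICH library for both. The adjacent genes Lilrb4a and Lilr4b rose by 6.67 ± 0.34 and 6.92 ± 0.39, and since their sequences are alike reads may have been split between them. Fcgr4, another receptor for immunoglobulin G, was at 0.397, 0.331 and 0.379 CPM in sham and 8.51, 14.3 and 11.8 CPM in ICH brains (4.96 ± 0.35).

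The promoter of Fcgr4 is shown because this list rose furthest and PU.1, the transcription factor of macrophages and microglia encoded by Spi1, binds purine-rich sites near the start of many phagocyte genes. The RefSeq sequence (GRCm38.p6, chr1:171018676-171018925, + strand) covers the 250 bases before the transcription start, with the match to the PU.1 pattern GAGGAAGT, here on the reverse strand, in capitals.
Fcgr4: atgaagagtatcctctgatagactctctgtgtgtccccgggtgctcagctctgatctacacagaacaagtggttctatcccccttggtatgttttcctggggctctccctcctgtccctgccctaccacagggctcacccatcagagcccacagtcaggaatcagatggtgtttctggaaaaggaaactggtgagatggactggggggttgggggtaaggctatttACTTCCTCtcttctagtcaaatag
The match lies 24 to 17 bases before the start. Over windows of 300 bases (250 before and 50 after the start, 1 per gene, both strands), GAGGAAGT was found in 4 of 30 genes of the list (13.3%) and in 3.28% of 27025 promoters. It was held by 5.30% of the 2548 promoters of genes that rose, 2.56% of the 9877 of genes not called and 1.40% of the 1709 of genes that fell; among the 797 of genes that rose by a fitted change of at least 4-fold the share was 9.28%. A match describes the sequence and does not show that PU.1 was bound.

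Scavenger and efferocytosis genes, which take up lipoproteins, debris and dying cells, rose in 12 of 20 and 15 of 24 members (medians 1.19 and 0.82). Stab1, a receptor of both lists that binds modified lipoproteins and phosphatidylserine, was at 11.2, 15.5 and 14.5 CPM in sham and 176, 181 and 186 CPM in ICH brains. The 3 ICH libraries differed little, and all were above the sham libraries. Dock2, which activates Rac in leukocytes, rose by 3.08 ± 0.20, and P2ry6, the receptor for UDP released by injured cells, by 3.69 ± 0.25. The one gene of each list to fall was Cd163, the haemoglobin-haptoglobin receptor of perivascular macrophages (-0.86 ± 0.26), and Adgrb1, a phosphatidylserine receptor (-0.41 ± 0.13). The adjusted p of Cd163 rose from 0.036 to 0.077, 0.11, 0.095 and 0.13 without sham 1, sham 3, ICH 1 and ICH 3. That of Adgrb1 lay between 0.068 and 0.17 without sham 1, sham 2, sham 3, ICH 1 or ICH 3.

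Lysosomal genes rose in 40 of 55 members, median 1.0. Ctsc, the protease that activates granule enzymes, was at 10.5, 10.04 and 9.71 CPM in the sham and 111, 120.0 and 115 CPM in the ICH libraries. Gusb, which removes glucuronic acid from glycosaminoglycans, was at 12.6, 13.4 and 11.5 CPM and 86.9, 83.4 and 91.4 CPM. Neither gene varied much within a group. The 4 members that fell were Atp6v1b2 (-0.63 ± 0.13), Atp6v1h (-0.62 ± 0.16), Atp6ap2 (-0.44 ± 0.14), which belong to the proton pump that acidifies lysosomes and also synaptic vesicles, and Gaa (-0.63 ± 0.19), the lysosomal glucosidase; Atp6ap2 and Gaa were singled out after their values were seen, and the groups of Gaa overlapped. That count was 2 without sham 1, sham 2 or ICH 3 and 1 without ICH 2.

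The phagocyte oxidase, the enzyme complex that makes superoxide, rose in 8 of 11 members (median 2.87). Its catalytic chain Cybb was at 0.343, 0.239 and 0.516 CPM in sham and 8.46, 14.2 and 12.1 CPM in ICH brains, and its membrane partner Cyba at 2.60, 3.11 and 2.85 CPM and 27.8, 32.7 and 37.4 CPM. In both cases the groups were clearly apart, and ICH 1 was the lowest ICH library. Lipid droplet and fatty acid genes rose in 12 of 29 members (median 0.59). Plin2, which coats lipid droplets, was at 5.31, 8.13 and 5.58 CPM in sham and 86.5, 97.6 and 104 CPM in ICH brains. Cpt1a, which admits fatty acids to mitochondria, rose 2.33-fold and Soat1, which esterifies cholesterol, 2.12-fold. The acyl-CoA synthetases Acsl3 (-0.55 ± 0.11) and Acsl4 (-0.52 ± 0.15, picked after its value was seen) and the diacylglycerol acyltransferase Dgat2 (-0.68 ± 0.17) fell, a count of 3 that was 1 without ICH 1 or ICH 2.

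Together the 6 phagocyte lists held 169 tested genes, of which 116 rose and 9 fell. Markers of 2 phagocyte types moved with them. All 9 microglial markers rose, with a summed level of 338 to 404 CPM in the sham libraries and 1257 to 1351 CPM in the ICH libraries. All 12 monocyte and macrophage markers rose as well, with sums of 51.8 to 79.4 CPM in the sham libraries and 828 to 1070.4 CPM in the ICH libraries. Of 10 neutrophil markers 7 could be tested and 4 rose, with sums of 8.40 to 10.04 CPM in the sham libraries and 39.6 to 69.6 CPM in the ICH libraries; Cxcr2 and Elane had no count in the sham libraries. The summed level of lymphocyte markers did not follow, at 52.4 to 75.3 CPM in the sham libraries and 37.5 to 46.4 CPM in the ICH libraries. Single markers differed: of 5 tested 1 rose and 1 fell, and their median log2 change was 2.06. Cd3d, Cd8a and Nkg7 had no count in the sham libraries but some in the ICH libraries. The part that a change in cell numbers had in the phagocyte lists was not tested.

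**Figure D3:**
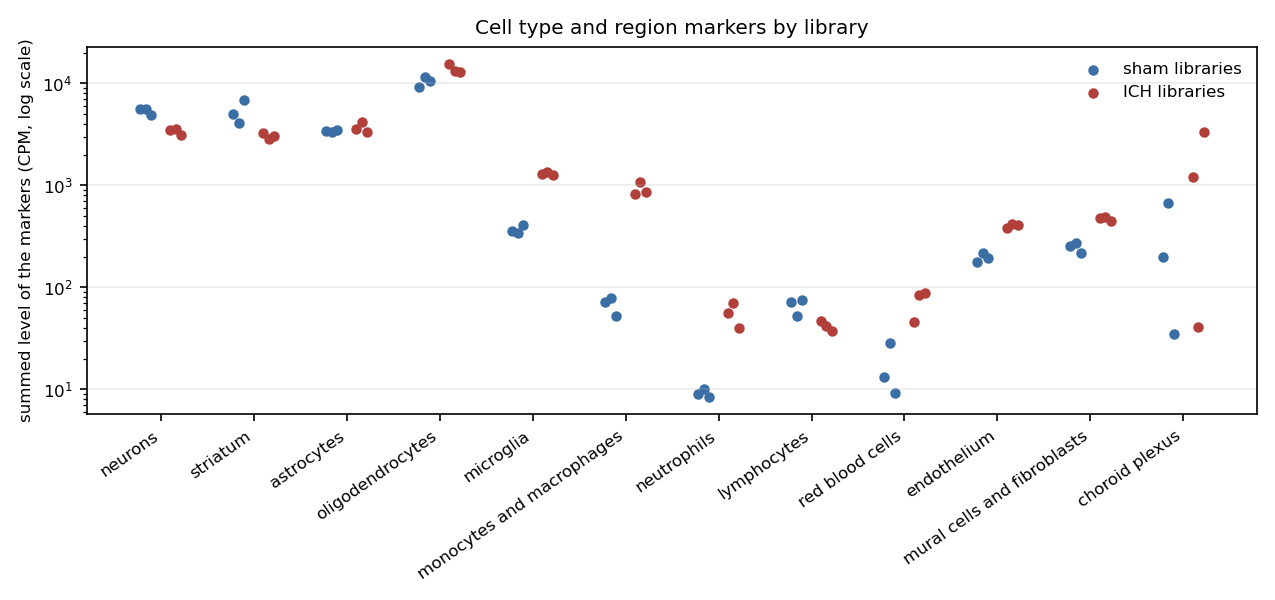
Summed CPM (log scale) of the marker genes of 12 cell types and regions in each sham (blue) and ICH (red) library. Monocyte and macrophage markers run from 51.8 to 79.4 CPM in sham and from 828 to 1070 CPM in ICH libraries, neuronal and striatal markers are lower in all 3 ICH libraries, and choroid plexus markers spread widely within both groups.

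Toll-like receptors and their adaptors, which sense microbial and damage signals, rose in 22 of 27 members, 0 fell, and the median was 2.05; with quantile-normalized FPKM 14 rose and the median was 0.91. Cd180 and Ly86 encode a receptor and its partner protein related to the Tlr4 complex. Cd180 was at 4.06, 2.98 and 2.40 CPM in sham and 56.2, 62.4 and 51.6 CPM in ICH brains, and Ly86 at 7.99, 6.66 and 7.32 CPM and 83.5, 79.9 and 72.7 CPM. The ICH values of both genes were far above the sham values. Tlr13, which senses bacterial ribosomal RNA, rose by 3.78 ± 0.23. In the TNF superfamily 18 of 40 members rose (median 1.14) and 0 fell, or 1 without ICH 3; with quantile-normalized FPKM 11 rose, with a median of 0.46. Tnf itself had no count in any sham library and 3.07, 2.39 and 2.21 CPM in the ICH libraries, which is at least 49.6-fold higher if each sham library is given 3 counts. Its receptor Tnfrsf1a was at 9.51, 11.8 and 7.90 CPM in sham and 80.3, 77.6 and 67.0 CPM in ICH brains, and Ltbr, the lymphotoxin beta receptor, rose by 2.18 ± 0.16.

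In the IL-1 family 9 of 15 members rose, with a median of 1.15, and 3 with quantile-normalized FPKM (0.36). Il1rn, the secreted antagonist, was at 0.217, 0.202 and 0.0910 CPM in sham and 2.93, 5.23 and 2.81 CPM in ICH brains, and the signalling receptor Il1r1 at 5.92, 4.01 and 5.10 CPM and 26.4, 21.2 and 18.5 CPM. All ICH values exceeded all sham values. Il18rap, a chain of the IL-18 receptor, had no sham count and 0.860, 1.596 and 0.814 CPM in ICH brains, at least 21.1-fold higher on the same basis. The 2 genes of the list that fell were Il1rapl1 (-0.99 ± 0.20) and Il1rapl2 (-1.12 ± 0.29), which build synapses in neurons, and the count was 1 without sham 3, ICH 2 or ICH 3. Among gp130 cytokines, JAK-STAT genes and their inhibitors 16 of 35 rose (median 0.85). Socs3, the feedback inhibitor of STAT3 signalling, was at 1.05, 1.21 and 1.47 CPM in sham and 33.9, 36.6 and 34.8 CPM in ICH brains, 28.2-fold higher (edgeR adjusted p = 6.0e-06). Clcf1, a ligand of the CNTF receptor, rose by 3.76 ± 0.27, while the receptor chain Cntfr was 0.11 ± 0.24 with overlapping groups, and -0.09 without sham 3 and -0.02 without ICH 2. The inhibitors Socs5 (-0.66 ± 0.11) and Socs7 (-0.63 ± 0.15) fell; Socs7 had an adjusted p of 0.0743 on log2(FPKM + 1).

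The NF-kappaB subunits and their inhibitors rose in 15 of 24 members (median 0.86), and in 9 with quantile-normalized FPKM (0.30). Bcl3, a nuclear partner of the p50 and p52 subunits, was at 0.902, 0.515 and 0.849 CPM in sham and 19.6, 22.0 and 17.0 CPM in ICH brains. Nfkb2, the gene for p52, was at 3.41, 3.31 and 3.00 CPM and 12.2, 13.3 and 13.2 CPM. No sham value of either gene came near the ICH values. Nfkbia, the inhibitor that holds NF-kappaB in the cytoplasm and is itself a target of the factor, was at 9.60, 7.89 and 9.66 CPM in sham and 20.7, 25 and 21.8 CPM in ICH brains (1.31 ± 0.14). Cyld, a deubiquitinase that restrains the pathway, fell (-0.67 ± 0.17, edgeR adjusted p = 0.014), with adjusted p-values of 0.054 without ICH 1 and 0.061 without ICH 2.

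The Nfkbia promoter is printed as the textbook case of an NF-kappaB feedback gene (RefSeq, GRCm38.p6, chr12:55492648-55492897, - strand, 250 bases before the start). Capitals mark the match to the kappaB pattern, GGG and TTTCC with any 2 bases between them, read on the strand opposite to the gene.
Nfkbia: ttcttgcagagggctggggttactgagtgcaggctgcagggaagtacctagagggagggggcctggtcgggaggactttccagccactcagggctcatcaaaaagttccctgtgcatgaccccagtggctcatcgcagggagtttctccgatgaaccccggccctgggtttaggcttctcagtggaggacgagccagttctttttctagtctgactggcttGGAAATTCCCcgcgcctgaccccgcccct
The match lies 29 to 20 bases before the start. In windows of 300 bases the pattern was present in 7 of 20 genes of the list and in 1.62% of all promoters. Of the 7 genes, which are named for holding the pattern, Nfkb2, Nfkbia, Tnfaip3 and Traf2 rose, Cyld fell, and Rel and Traf3 did not pass the test, so in this list the letters did not go with 1 direction. Over the whole list 15 of 24 members rose and 1, Cyld, fell.

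Colony-stimulating factors, their receptors and myeloid transcription factors rose in 25 of 33 members, with a median of 1.96 and 0 that fell. Csf1r, the receptor that keeps microglia and macrophages alive, was at 89.8, 87.4 and 115 CPM in sham and 367, 388 and 338 CPM in ICH brains. Irf8, a factor of the microglial and monocyte lines, was at 5.94, 5.74 and 7.73 CPM and 38.2, 42.2 and 38.5 CPM, and Cebpd, a factor of acute inflammation, at 2.80, 2.005 and 2.50 CPM and 35.03, 37.1 and 38.9 CPM. In each case every ICH library exceeded every sham library, and the ICH values were close together. AP-1 and injury factors split: 13 of 31 rose, 3 fell, and the median was 0.20. Atf3, induced by many kinds of injury, was at 0.938, 1.12 and 0.864 CPM in sham and 12.7, 14.3 and 17.1 CPM in ICH brains. Jun rose 2.16-fold, whereas Atf2 (-0.62 ± 0.09), the activity-dependent gene Egr3 (-1.03 ± 0.16) and Ets2 (-0.51 ± 0.12, picked after its value was seen) fell.

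Genes of clotting and clot removal rose in 24 of 42 members (median 1.70, or 1.603 with the 4 genes lacking sham counts at their lowest possible fold). Vwf, the endothelial protein that tethers platelets, was at 15.5, 11.3 and 17.7 CPM in sham and 101, 115 and 104 CPM in ICH brains, 7.21-fold higher (edgeR adjusted p = 6.0e-06). Anxa2 and S100a10 form the cell-surface complex that gathers plasminogen and its activator. Anxa2 was at 7.72, 8.04 and 5.90 CPM and 76.6, 83.4 and 96.5 CPM, and S100a10 at 7.42, 6.71 and 8.98 CPM and 30.3, 27.8 and 32.4 CPM, with no overlap for either. Red cell markers moved in the same direction, with a summed level of 9.28 to 28.6 CPM in the sham libraries and 45.3 to 88.0 CPM in the ICH libraries and 4 of 6 tested higher; what blood left in the tissue added was not tested.

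Leukocyte adhesion genes, by which white cells bind and cross vessel walls, rose in 20 of 27 members (median 1.59). Itgb2, the shared chain of the leukocyte integrins, was at 3.59, 5.22 and 4.84 CPM in sham and 62.5, 83.5 and 60.2 CPM in ICH brains, and its partner Itgax at 0.217, 0.313 and 0.394 CPM and 6.79, 9.06 and 7.59 CPM. ICH 2 was the highest library for both. Cd34, a sialomucin of endothelium and progenitors, rose 3.06-fold. Alcam (-1.04 ± 0.12) and Cd99l2 (-0.37 ± 0.08) fell, but Cd99l2 had an adjusted p of 0.0721 when libraries were scaled by their totals alone. Angiogenic genes rose in 29 of 39 members and 0 fell (median 0.99). Notch1, which sets tip and stalk cell fate, was at 34.5, 38.6 and 35.5 CPM in sham and 70.7, 81.2 and 77.4 CPM in ICH brains, and Nos3, the endothelial nitric oxide synthase, at 8.48, 10.3 and 8.84 CPM and 24.9, 25.7 and 29.0 CPM. Angptl4, a lipase inhibitor induced by hypoxia, rose by 3.04 ± 0.29.

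The transporters and junction proteins of the blood-brain barrier did not fall as a group: 18 of 30 rose, 3 fell, and the median was 0.62. Slc2a1, the glucose transporter of brain endothelium, was at 87.0, 96.4 and 91.4 CPM in sham and 181, 200.7 and 183 CPM in ICH brains. Slc16a1, which carries lactate, was at 35.5, 38.2 and 38.3 CPM and 91.4, 82.1 and 104 CPM, and Slc3a2, the heavy chain of amino acid transporters, at 67.7, 77.0 and 65.1 CPM and 147, 158 and 155 CPM. The groups did not overlap for any of them, and the spread within groups was small. The members that fell were the transferrin receptor Tfrc (-0.64 ± 0.14), Spock2 (-0.46 ± 0.13) and the junction protein Cgn (-0.76 ± 0.25, picked after its value was seen), a count of 3 that was 1 in 5 of the 6 fits without 1 library (all but that without sham 3). All 8 endothelial markers rose too, with sums of 176 to 215 CPM in the sham libraries and 379 to 416 CPM in the ICH libraries, and how much of the vessel lists followed endothelial cell number was not tested.

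Collagens rose in 16 of 41 members (median 0.74). Col4a1 and Col4a2 form the network of the vascular basement membrane. Col4a1 was at 35.3, 51.4 and 45.4 CPM in sham and 177, 181 and 209.6 CPM in ICH brains, and Col4a2 at 57.4, 71.1 and 60.9 CPM and 145, 161 and 162 CPM. Col5a3, a fibrillar chain, rose by 2.47 ± 0.17, while Col6a1 was 0.08 ± 0.21 with overlapping groups, and -0.03 without sham 1 and -0.01 without sham 2. One collagen fell, the neuronal transmembrane collagen Col25a1 (-0.99 ± 0.31), which passed the test in the full fit and without sham 3 but in none of the other 5 fits without 1 library (adjusted p 0.087 to 0.14).

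Integrin and laminin subunits, the cell's links to that membrane and its main glycoprotein, rose in 20 of 37 members and 0 fell, or 1 without sham 2 (median 0.70). Itgb1, the common beta chain, was at 58.1, 67.4 and 67.4 CPM in sham and 153, 144 and 164 CPM in ICH brains, and Itgb5, part of a receptor for vitronectin, at 31.9, 31.7 and 39.7 CPM and 142, 141 and 132 CPM. Among matrix proteases and their inhibitors 22 of 43 rose (median 0.66). Timp1, an inhibitor of metalloproteinases, was at 0.632, 0.405 and 0.485 CPM in sham and 46.2, 47.2 and 43.5 CPM in ICH brains, 90.0-fold higher (edgeR adjusted p = 3.4e-06). Adamts1, which cleaves aggrecan and versican, rose by 2.36 ± 0.22 and the membrane protease Mmp14 by 1.63 ± 0.17. The members that fell were Mmp24 (-0.54 ± 0.11), Adamts18 (-1.30 ± 0.34) and Adamts3 (-0.68 ± 0.22, picked after its value was seen, with groups that overlapped), a count that was 1 without ICH 1 or ICH 2.

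Matricellular and provisional matrix genes rose in 20 of 45 members (median 0.83). Ccn1, secreted into wounds, was at 4.85, 4.78 and 4.26 CPM in sham and 40.4, 37.9 and 31.8 CPM in ICH brains, and Tgfbi, a collagen-binding protein of macrophages and stroma, at 5.70, 5.70 and 4.56 CPM and 71.5, 107 and 79.4 CPM. ICH 2 was highest for Tgfbi, and the groups overlapped for neither gene. Spock3 (-0.84 ± 0.21) and Postn (-0.80 ± 0.26) fell, and this count was 1 without sham 1, ICH 1 or ICH 3, 4 without sham 3 and 0 without ICH 2. Genes of the lecticans and perineuronal nets, the matrix around neurons, rose in 11 of 24 members (median 0.47). The lectican Bcan, the member of highest level, was lower without overlap but missed the threshold (-0.31 ± 0.11, edgeR adjusted p = 0.062). It passed with DESeq2 (0.0172), upper quartile scaling (0.0355), quantile-normalized FPKM (0.042) and without ICH 2 (0.0415), and missed the threshold in the other fits. Cspg4, the NG2 proteoglycan of oligodendrocyte precursors and pericytes, was at 20.6, 18.8 and 20.4 CPM in sham and 40.5, 45.9 and 43.6 CPM in ICH brains. Has2, a hyaluronan synthase, rose by 2.60 ± 0.36, whereas Has3 (-0.81 ± 0.24) and the chondroitin synthase Chsy3 (-1.15 ± 0.25) fell, a count of 2 that was 1 without sham 1, sham 2, ICH 1 or ICH 3. Markers of mural cells and fibroblasts, which make much of this matrix, rose in 7 of 10 cases, with sums of 219 to 269.8 CPM in the sham libraries and 445 to 486 CPM in the ICH libraries, and their part was not tested.

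TGF-beta family genes were called near the background, with 10 of 51 higher (19.6%) and 5 lower (9.80%), and the median of 0.15 became -0.02 with quantile-normalized FPKM. Tgfbr2, the ligand-binding receptor, was nonetheless at 20.2, 19.5 and 17.9 CPM in sham and 75.1, 80.7 and 71.7 CPM in ICH brains. Nrros, which holds latent TGF-beta on microglia and macrophages, rose 4.08-fold. The members that fell were Acvr1b (-0.55 ± 0.10) and Gdf10 (-1.38 ± 0.28), with Bmpr2 (-0.37 ± 0.11), Acvr2a (-0.64 ± 0.20) and the BMP antagonist Nog (-1.04 ± 0.33), which were picked after their values were seen; the count of 5 was 2 without sham 1, ICH 1, ICH 2 or ICH 3. In the IGF axis 7 of 16 members rose and 0 fell (median 0.52). Igfbp2, which binds the growth factors in tissue fluid, was at 10.5, 15.9 and 7.96 CPM in sham and 115, 104 and 129 CPM in ICH brains, and Igfbp3 at 7.16, 10.2 and 6.73 CPM and 47.8, 46.1 and 36.0 CPM. H19, an imprinted non-coding RNA of the Igf2 locus, rose by 5.06 ± 0.41.

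**Figure D4:**
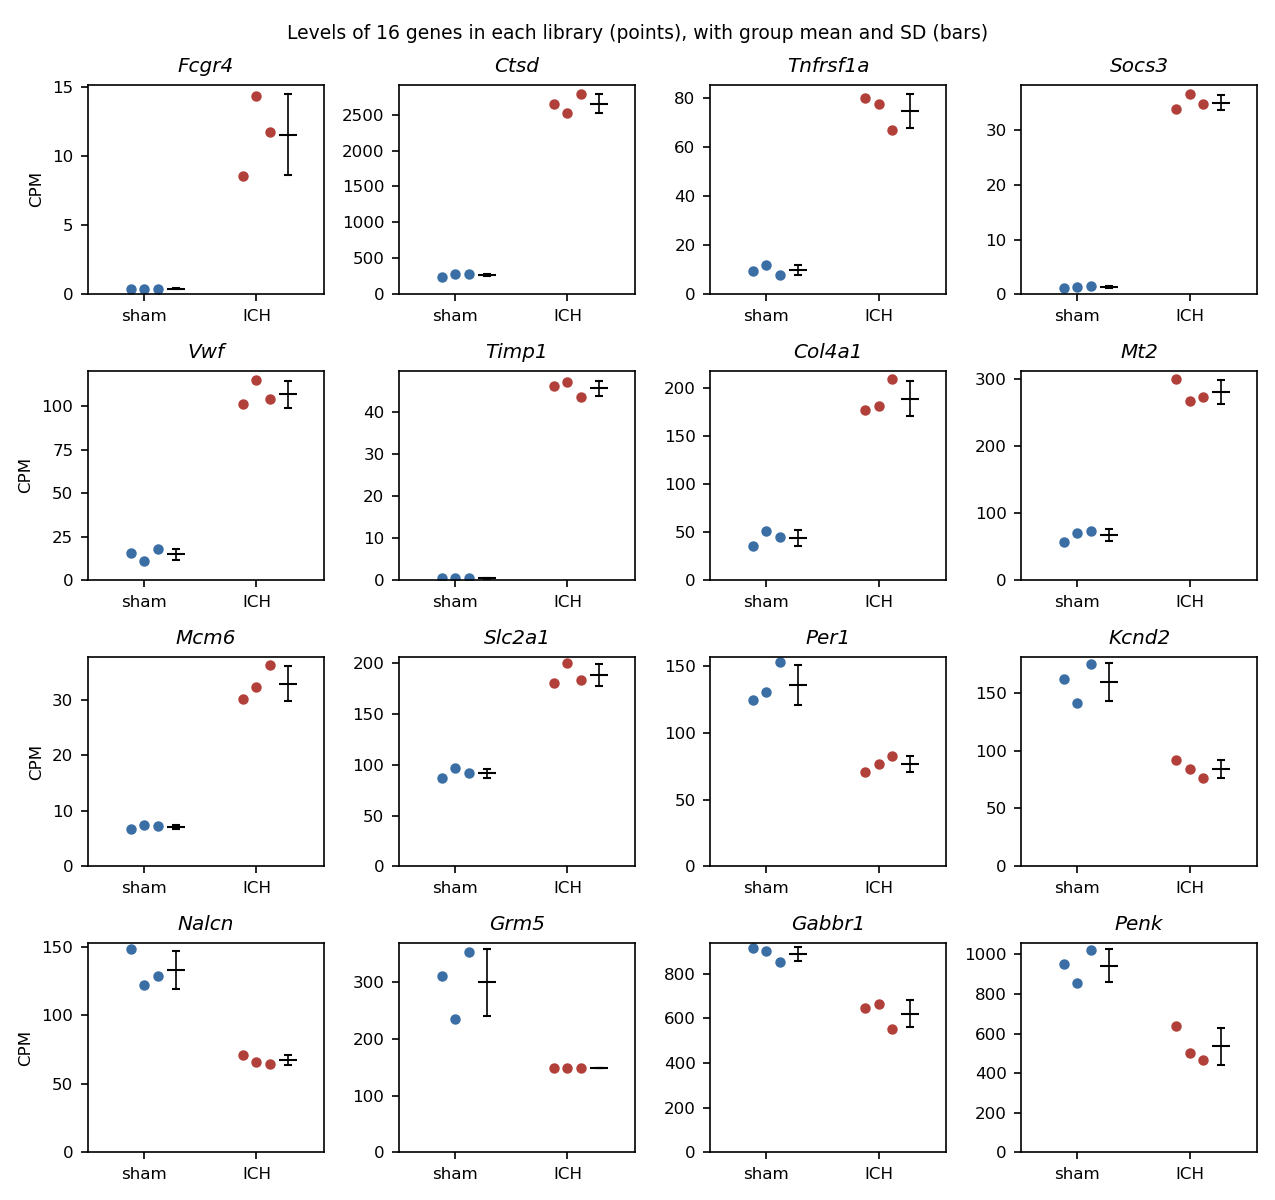
CPM of 16 genes in each sham (blue) and ICH (red) library, with the group mean and SD (n = 3) as a bar; every axis starts at 0. In all 16 genes the 3 ICH libraries lie on 1 side of the 3 sham libraries, above them for the first 10 genes and below them for Per1, Kcnd2, Nalcn, Grm5, Gabbr1 and Penk. Steady genes were picked for groups that did not overlap, so for them this follows from the choice.

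Metallothioneins, small cysteine-rich proteins that bind zinc and copper, rose in all 3 genes tested, while most zinc transporters of the same list did not pass the test. Over the list 7 of 28 members rose and 3 fell, and the median of 0.02 was -0.02 with upper quartile scaling and -0.07 with quantile-normalized FPKM. Mt2 was at 57.0, 71.1 and 73.8 CPM in sham and 301, 268 and 273 CPM in ICH brains (2.06 ± 0.17), Mt1 at 121, 147 and 127 CPM and 471, 375 and 355 CPM (1.603 ± 0.16), and the brain form Mt3 at 113, 131 and 101 CPM and 255, 246 and 228 CPM (1.08 ± 0.13). ICH 1 was the highest library for all 3 genes, and the groups overlapped for none of them. The zinc importers Slc39a1 (1.48 ± 0.14) and Slc39a14 (0.96 ± 0.10), which also carries iron, rose. The exporter genes Slc30a9 (-0.42 ± 0.09) and Slc30a10 (-0.54 ± 0.13) and the metal-sensing factor Mtf1 (-0.38 ± 0.10, picked after its value was seen) fell, a count that was 0 when libraries were scaled by their totals alone.

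The Mt2 promoter is shown because metallothionein genes carry repeated metal response elements, to which MTF1 binds when zinc is high (RefSeq, GRCm38.p6, chr8:94172368-94172617, + strand, 250 bases before the start). Matches to the 7-base core TGCNCNC on either strand are in capitals.
Mt2: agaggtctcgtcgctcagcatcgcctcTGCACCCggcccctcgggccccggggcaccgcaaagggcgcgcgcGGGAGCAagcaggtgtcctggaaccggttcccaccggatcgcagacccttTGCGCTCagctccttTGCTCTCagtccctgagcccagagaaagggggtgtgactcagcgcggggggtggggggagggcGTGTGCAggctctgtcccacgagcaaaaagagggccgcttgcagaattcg
The 5 matches lie between 223 and 44 bases before the start. Such a short core is common, present in 50.4% of all promoters, in 58.8% of those of genes tested and in 20 of 25 genes of the list (80.0%). It was held by 56.2% of the promoters of genes that rose, 58.4% of genes not called and 65.0% of genes that fell.

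Glycolysis and hypoxia genes rose in 10 of 46 members (21.7%), 2 fell, and the median of 0.05 was -0.04 with quantile-normalized FPKM. Hexokinases of activated and myeloid cells rose: Hk2 was at 2.31, 3.42 and 3.56 CPM in sham and 25.2, 24.5 and 31.2 CPM in ICH brains, and Hk3 at 0.830, 1.93 and 2.46 CPM and 19.9, 20.6 and 23.6 CPM. The neuronal enolase Eno2, at 699.7, 753 and 814 CPM in sham and 518, 451 and 501 CPM in ICH brains, fell, and so did the neuronal glucose transporter Slc2a3 (-0.59 ± 0.14), whose adjusted p was 0.052 without ICH 1 and 0.061 without ICH 2. Aldoa, the member with the highest level, was -0.08 ± 0.12 and its groups overlapped.

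Genes of the unfolded protein and integrated stress responses rose in 19 of 44 members (median 0.46). Calr, a chaperone of the endoplasmic reticulum, was at 262, 317 and 269 CPM in sham and 505, 514 and 499 CPM in ICH brains, and Edem1, which sends misfolded glycoproteins to degradation, at 19.8, 19.7 and 22.4 CPM and 61.9, 57.9 and 69.4 CPM. Asns (-0.71 ± 0.13), a target of ATF4, fell with Vldlr (-0.46 ± 0.11); without ICH 2 the adjusted p of Vldlr was 0.058 and 1 gene was left. Genes of p53 signalling rose in 17 of 37 members (median 0.56). Cdkn1a, the inhibitor of cyclin-dependent kinases, was at 14.7, 13.96 and 12.9 CPM in sham and 49.5, 56.1 and 46.5 CPM in ICH brains, and Ckap2, a spindle protein, at 0.884, 0.699 and 0.955 CPM and 19.8, 23.4 and 25.5 CPM. Tigar (-0.42 ± 0.11), Zmat3 (-0.51 ± 0.14) and Rrm2b (-0.33 ± 0.11, picked after its value was seen) fell, a count of 3 that was 1 without sham 2 and 0 without ICH 2 or ICH 3.

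Genes for prostaglandin and leukotriene synthesis and their receptors rose in 15 of 34 members (median 1.15), and 0 fell, or 3 without sham 3. Alox5ap, which hands arachidonic acid to 5-lipoxygenase, was at 2.92, 3.09 and 2.18 CPM in sham and 39.6, 37.5 and 31.4 CPM in ICH brains, Tbxas1, the thromboxane synthase, at 1.84, 2.57 and 3.41 CPM and 26.0, 26.5 and 23.2 CPM, and Hpgds, a prostaglandin D synthase of blood cells and microglia, at 11.6, 10.9 and 11.3 CPM and 40.2, 36.0 and 34.2 CPM. Groups were far apart for all 3 genes. Ptgds, the prostaglandin D synthase of meninges, choroid plexus and oligodendrocytes, was at 439, 308 and 104 CPM in sham and 105, 84.2 and 103 CPM in ICH brains and missed the threshold (edgeR adjusted p = 0.074), but passed it without sham 3 (0.019) and with DESeq2 (0.0349). Sham 3 was the sham library lowest in choroid plexus markers, while ICH 3 was the highest of all 6 libraries in them (3297 CPM). The part of choroid plexus in the levels of Ptgds was not tested. S100 and annexin genes rose in 18 of 26 members (median 1.48). Anxa3 was at 9.17, 8.24 and 10.3 CPM in sham and 53.9, 50.1 and 64.8 CPM in ICH brains, and the calcium sensor S100a1 at 31.7, 35.5 and 30.3 CPM and 85.2, 89.4 and 86.0 CPM. S100pbp, named for binding an S100 protein, was the only member to fall (-0.69 ± 0.11).

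Targets of glucocorticoids split, with 9 of 28 higher, 4 lower and a median of 0.22 that was -0.02 with quantile-normalized FPKM. Lcn2, an iron-binding protein of reactive astrocytes and neutrophils, was at 0.559, 0.441 and 1.18 CPM in sham and 103, 120.3 and 89.4 CPM in ICH brains, 143-fold higher. Per1 (-0.82 ± 0.12) and Klf9 (-0.62 ± 0.14), which glucocorticoids induce directly, fell, as did Tsc22d3 (-0.42 ± 0.10) and the mineralocorticoid receptor Nr3c2 (-0.61 ± 0.16), both picked after their values were seen; 2 of the 4 were left without ICH 3, and Klf9 had an adjusted p of 0.0678 on log2(FPKM + 1). Clock genes fell in 7 of 25 members, 0 rose, and the median was -0.29. Per1, a repressor of the clock, was at 124, 130.4 and 153 CPM in sham and 71.0, 76.7 and 82.8 CPM in ICH brains. Arntl, the activator BMAL1, was at 27.5, 28.9 and 32.8 CPM and 16.8, 20.03 and 16.9 CPM, and Cry2, another repressor, at 111, 109.8 and 118 CPM and 75.5, 76.6 and 76.8 CPM. The falls were modest, activators and repressors fell together, and the groups of these 3 genes did not overlap. The labels gave no time of day of sampling, and its part in these falls was not tested.

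The proteasome was near the background at 7 of 38 members higher (18.4%), and 4 without sham 1, ICH 1 or ICH 2 or with upper quartile scaling. The 7 genes were Psmb8, Psmb9, Psmb10 and Psme1, which interferon induces, and Psmb2, Psmd8 and Psmd11; Psmb9, Psmb2, Psmd8 and Psmd11 were named after their values were seen. The catalytic subunit Psmb8 was at 1.97, 3.20 and 4.52 CPM in sham and 13.4, 18.7 and 17.9 CPM in ICH brains, Psmb9 and Psmb10 rose by 1.86 ± 0.41 and 0.85 ± 0.16, and the activator Psme1 by 0.75 ± 0.11. The constitutive ATPase subunit Psmc5 was -0.10 ± 0.09, with overlapping groups.

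Genes of DNA replication rose almost as one. Of the list 49 of 54 rose, 0 fell, and the median was 1.53. Mcm6, a subunit of the replicative helicase, was at 6.71, 7.45 and 7.26 CPM in sham and 30.2, 32.4 and 36.3 CPM in ICH brains, and Pcna, the sliding clamp, at 26.9, 32.4 and 32.5 CPM and 89.8, 82.3 and 89.7 CPM. Rrm1 and Rrm2 form ribonucleotide reductase, which makes deoxynucleotides. Rrm1 was at 18.2, 16.8 and 17.8 CPM in sham and 52.5, 56.4 and 54.1 CPM in ICH brains, and Rrm2, the chain made mainly in S phase, at 1.25, 2.04 and 2.20 CPM and 42.4, 43.0 and 46.3 CPM. All 4 genes were above sham in every ICH library, with ICH 3 highest for Mcm6 and Rrm2. Cdc6, which loads the helicase, was at 0.379, 0.386 and 1.24 CPM in sham and 5.44, 4.94 and 7.26 CPM in ICH brains (3.12 ± 0.48), and its change was 3.93 without sham 3, its highest sham library.

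The Cdc6 promoter is shown as an example of a replication gene with an E2F site (RefSeq, GRCm38.p6, chr11:98907901-98908150, + strand, 250 bases before the start). Capitals mark the match to TTTCCCGC, on the reverse strand.
Cdc6: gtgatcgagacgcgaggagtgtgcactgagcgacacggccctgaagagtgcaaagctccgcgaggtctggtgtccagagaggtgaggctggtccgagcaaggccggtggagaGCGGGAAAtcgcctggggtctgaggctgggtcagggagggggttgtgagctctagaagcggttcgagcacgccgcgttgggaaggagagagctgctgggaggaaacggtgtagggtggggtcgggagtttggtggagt
The match lies 138 to 131 bases before the start. This pattern can share the letters TTTCC with the NF-kappaB pattern above. It was found in 8 of 42 genes of the list, in 1.11% of all promoters and in 1.78% of those of genes tested. By call, 2.59% of the promoters of genes that rose held it, 1.69% of genes not called and 1.11% of genes that fell. The CCAAT box was found in 25 of the 42 (59.5%), in 37.9% of all promoters and in 38.1% of those of genes tested.

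Ependymal cilia genes gave little: 0 of 30 rose, or 1 without sham 1, and 1 fell, Ccdc39 (-0.46 ± 0.14, picked after its value was seen), which passed in neither the fit without sham 1 nor those without sham 3, ICH 1 or ICH 2. The median of 0.17 was -0.04 with quantile-normalized FPKM. Foxj1, the factor that switches on motile cilia, was at 20.7, 15.9 and 9.98 CPM in sham and 30.5, 29.2 and 34.7 CPM in ICH brains, with no overlap but an adjusted p of 0.055 (edgeR). Its adjusted p was 0.043 without sham 1, 0.0135 with DESeq2 and 0.0131 with the sham and ICH libraries fitted alone. It was 0.0485 with a minimum count of 50 and 0.0448 with quantile-normalized FPKM, and the gene missed the threshold in the other fits.

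Genes of neuronal signalling fell across ion channels, receptors and synapses. The 9 lists of these genes held 356 tested genes, of which 178 fell and 8 rose, with a median log2 change of -0.65. Their summed level was 49376, 45953 and 49157 CPM in sham 1, 2 and 3 and 32669, 33971 and 29699 CPM in ICH 1, 2 and 3.

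Sodium and calcium channels fell in 24 of 38 members, or 15 without sham 1, and 0 rose (median -0.66). Nalcn, the leak channel that sets resting excitability, was at 149, 122 and 128 CPM in sham and 71.1, 66.1 and 64.7 CPM in ICH brains (edgeR adjusted p = 1.2e-04). Scn3a, a pore subunit, was at 80.9, 74.7 and 89.7 CPM and 42.4, 47.2 and 45.7 CPM, and the auxiliary Scn3b at 177, 153 and 154 CPM and 87.4, 87.6 and 83.2 CPM. No sham value lay within the ICH range of these genes. Scn4b, the member of highest level and a gene of striatal neurons, was at 773, 588 and 1383 CPM and 488, 441 and 539 CPM, with sham 3 far above the others, and missed the threshold (edgeR adjusted p = 0.060). It passed without sham 2 (0.024), with upper quartile scaling, with the sham and ICH libraries fitted alone and with DESeq2 (0.0088).

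Voltage-gated potassium channels fell in 19 of 43 members, or 12 without sham 1, ICH 1 or ICH 3 (median -0.63). Kcnd2, which carries the A-type current of dendrites, was at 162, 141 and 174 CPM in sham and 92.2, 84.4 and 76.6 CPM in ICH brains, and Kcnq3, part of the M-current channel, at 253, 209 and 231 CPM and 137, 151 and 123 CPM. Against this direction, Kcnq1 (2.10 ± 0.40) and Kcng4 (1.66 ± 0.33) rose from low levels. Other potassium channels fell in 10 of 34 members and rose in 3 (median -0.33); the falls numbered 5 without sham 1, 4 without ICH 1 or ICH 3 and 6 without ICH 2. The inward rectifier Kcnj2 fell from 34.9, 33.9 and 44.9 CPM in sham to 23.7, 25.3 and 24.1 CPM in ICH brains. Kcnk6 was at 3.83, 3.49 and 4.91 CPM and 17.7, 21.8 and 18.2 CPM, and Kcnn4, a calcium-activated channel of microglia and leukocytes, at 0.253, 0.405 and 0.227 CPM and 1.58, 1.93 and 2.14 CPM, so both rose while the larger number of calls in the list were falls. Kcnk13 also rose (0.67 ± 0.21, picked after its value was seen).

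Glutamate receptors fell in 16 of 25 members and 0 rose (median -0.68). Gria1, an AMPA receptor subunit, was at 497, 380.5 and 401 CPM in sham and 283, 246 and 227 CPM in ICH brains. The metabotropic receptor Grm5 was at 310.1, 236 and 353 CPM in sham and 149, 149 and 149 CPM in ICH brains. The sham mean was 1.69 times the ICH mean for Gria1 and 2.01 times for Grm5, and the 3 ICH values of Grm5 were nearly equal. Receptors for GABA and glycine, the inhibitory transmitters, fell most often of these 9 lists, in 17 of 21 members, and 0 rose (median -0.86). Gabbr1, a subunit of the GABA-B receptor, was at 913, 899.8 and 854 CPM in sham and 645, 666 and 554 CPM in ICH brains (-0.52 ± 0.12, edgeR adjusted p = 0.0080), and Glra2, a glycine receptor subunit, at 26.5, 24.7 and 15.5 CPM and 9.13, 7.37 and 5.68 CPM. Within each group library 3 was the lowest for both genes, and the groups did not overlap.

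Receptors for monoamines, acetylcholine, opioids, cannabinoids, histamine and adenosine fell in 21 of 49 members, or 12 without ICH 2 and 11 without ICH 3 (median -0.67). Chrm4, a muscarinic receptor of striatal neurons, was at 49.7, 49.6 and 54.5 CPM in sham and 29.8, 29.0 and 24.97 CPM in ICH brains, and Htr1a, a serotonin receptor, at 12.6, 10.3 and 6.88 CPM and 3.51, 3.03 and 1.54 CPM. The dopamine receptor Drd2, at 219, 175 and 192 CPM and 145, 119 and 98.6 CPM, passed the test in the full fit (0.029) but not without sham 1, sham 3, ICH 2 or ICH 3 (0.052 to 0.11). The count of members that rose was 2 in the full fit, 1 without sham 1, sham 2 or ICH 1 and 0 without sham 3, ICH 2 or ICH 3. Adora2b, an adenosine receptor, was among them (0.83 ± 0.22).

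At the presynapse, 30 of 57 genes of vesicles and release fell, or 17 to 18 without sham 1 or any 1 ICH library, and 0 rose (median -0.68). Slc32a1, which fills vesicles with GABA and glycine, was at 186, 179 and 173 CPM in sham and 109, 82.2 and 93.1 CPM in ICH brains, and Syt4, a synaptotagmin, at 144, 144 and 148 CPM and 92.7, 74.6 and 82.3 CPM. The sham values of both were close, and ICH 2 was lowest. Cplx1, the member of highest level, was -0.25 ± 0.18 with overlapping groups. Postsynaptic scaffolds and synapse organisers fell in 32 of 53 members (median -0.58). Nrxn3, a presynaptic organiser, was at 219.9, 187 and 197 CPM in sham and 112, 109 and 94.5 CPM in ICH brains, and Lrfn5, an adhesion protein that induces presynaptic sites, at 45.2, 52.2 and 43.9 CPM and 22.9, 25.7 and 20.2 CPM. Homer3 was the only member to rise (1.002 ± 0.21).

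Neuropeptide genes fell in 9 of 36 members, 0 rose and the median was -0.83. The count depended on single libraries: it was 16 without sham 3 and 4 without ICH 3, and 14 with DESeq2. Penk, the enkephalin precursor of striatal neurons, was at 953, 854 and 1024 CPM in sham and 640.0, 500.4 and 466 CPM in ICH brains. Tac1, the precursor of substance P, was at 93.3, 94.1 and 145 CPM and 54.8, 47.4 and 49.8 CPM, and Pdyn, that of dynorphin, at 66.9, 74.4 and 84.6 CPM and 51.3, 34.4 and 40.3 CPM. All 3 peptides are made by striatal projection neurons, and in none did the groups overlap. Striatal markers fell in 9 of 10 cases, with sums of 4097 to 6855 CPM in the sham libraries and 2844 to 3295 CPM in the ICH libraries. Of the cortical markers 2 of 10 fell, and of the thalamic and hypothalamic markers 2 of 13. The median log2 change was -0.82 for striatal and -0.07 for cortical markers. It was -0.83 for thalamic and hypothalamic markers, as low as for striatal ones. Their sums varied widely, from 158 to 603 CPM in sham and 196 to 480 CPM in ICH libraries. The part that the piece of tissue taken had in these falls was not tested.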

How the data were processed

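Poly(A) RNA-seq of 9 mouse brains (3 sham, 3 ICH, 3 ICH with P7C3-A20) was deposited as 1 gene table. The submitters' processing notes name cutadapt 1.9, HISAT2 2.0.4 and StringTie 1.3.4d; no source used here names the annotation release or the counting settings. The authors deposited estimated counts per gene, all whole numbers, and FPKM values, per the file headers. Genes passing filterByExpr (minimum count 10, minimum total 15) were fitted with edgeR 4.0.16 (R 4.3.3; TMM scaling, robust quasi-likelihood, 3 group means, all 9 libraries), with Benjamini-Hochberg adjustment over 21900 genes. The standard error of a log2 change is its size divided by the square root of F. The script was tested on simulated data. FPKM were checked with limma 3.58.1 on log2(FPKM + 1) among 14644 genes reaching 1 FPKM in 3 libraries. Of 4861 edgeR calls among genes in both fits, limma called 3527 (72.6%) in the same direction and 0 in the opposite one. A replicate is 1 mouse, and replicates of a group correlated at 0.983 to 0.992 (log2 CPM).

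The gene lists, markers and motifs were chosen with earlier results of these data known, and list counts are descriptions. Genes were named by a rule: the 8 steady genes with the largest rise and fall of mean FPKM, and in each list up to 3 steady members of smallest p, up to 2 called against the list's main direction, and the member of highest FPKM; plus Mt1, Mt2, Mt3 and genes with a printed promoter. Clones, gene models, pseudogenes, mitochondrial genes and sex-linked genes were left out, the last read as Y-linked genes, Xist and Tsix, so X-linked genes such as Tmsb4x were kept. Other genes are marked where named, apart from those named as cell type markers or for a promoter pattern. Alternatives were other scalings, tools, filters and units, fits without each library in turn, and a replicate block. Promoters are from RefSeq (GRCm38.p6); 14134 of 21874 tested symbols had one. Some genes that the rule names are not reported here.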

Additional observations from a re-analysis of the deposited data

How the results depend on the processing

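The count of 5701 genes, of 21900 tested, was 6846 with DESeq2. It fell to 3760 with limma on log2(FPKM + 1) and 3739 on log2(FPKM + 0.1). These limma fits covered 14644 genes, so the totals are over unlike sets of genes. Of the 5701 edgeR calls, 4861 were for genes also in the fit on log2(FPKM + 1). What else lowered the count was not tested. The 2283 lower genes became 1475 with library totals alone as the scaling and 1230 and 1246 in those 2 limma fits, and rose to 2736 with upper quartile scaling, 3053 with DESeq2 and 3300 with quantile-normalized FPKM. Leaving out 1 library gave 4075 to 5561 called genes, 2701 to 3345 higher and 1354 to 2216 lower. Quantile-normalized FPKM, tested on 14644 genes, turned the split, with 43.1% of 5799 calls higher against 60.0% of 5701. Under a replicate block 5326 genes were called, 3248 higher and 2078 lower. Deviations of same-numbered sham and ICH mice correlated at 0.108, 0.0758 and 0.248. Each ICH mouse correlated best with the sham mouse of its number, and among sham mice only sham 2 was closer to another number (ICH 1, 0.103). The labels do not say what the numbers mean, so the main fit did not pair mice. Whether mice of 1 number shared a batch was not tested. No named gene past the threshold changed sign; Cntfr and Col6a1, which did not pass it, did when single libraries were left out. Of 215 named genes 206 kept their side of the threshold with DESeq2, which called 9 more. With limma on log2(FPKM + 1) 187 did, 15 lost the call and 1 gained it. The remaining named genes did not reach 1 FPKM in 3 libraries, so that fit did not check them. Below 1 FPKM 10.9% of genes rose and 2.17% fell, against 17.1% and 22.4% between 10 and 100 FPKM; the part of depth in this was not tested.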
